A study of Homo sapiens with 9 samples.

Results

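The histone deacetylase (HDAC) genes HDAC1 to HDAC9 and HDAC11 were followed across 9 arrays of OVISE cells, an established ovarian clear cell carcinoma line with mutated ARID1A. Members were taken by name: every probe that the platform annotation assigns to one of these 10 symbols was included, whatever its value. This gave 17 of the 47323 probes on the array. A probe was tested if its detection p-value, the scanner software's comparison with negative controls, was below 0.05 on at least 3 of the 9 arrays, and 15 of the 17 passed, among 23014 probes tested in all. Each of the 10 genes kept at least 1 probe.

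Cells of every group were cultured as 3-dimensional growths within Matrigel, which is made from basement membrane. The control group received the vehicle DMSO, the second received doxycycline at 1 µg/mL to switch on wild-type ARID1A, and the third received 5 µM GSK126, an inhibitor of the histone methyltransferase EZH2. Each group has 3 arrays, and each of the labelled batches 1 to 3 holds 1 array of every group. Doxycycline was given only where ARID1A was induced, so the drug and the induced protein cannot be told apart. Nothing in the labels says that replicates came from separate cultures, so the spread behind each p-value is that of these samples and could be technical. Neither the promoter behind the induction nor whether the inducible line is 1 clone is described. In bulk RNA, a change in the share of cells of one kind and a change in RNA per cell cannot be told apart.

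HDACs remove acetyl groups from lysines of histones and other proteins, and most reach chromatin inside repressor complexes. HDAC1, HDAC2, HDAC3 and HDAC8 form class I; HDAC4, HDAC5, HDAC7 and HDAC9 form class IIa, which shuttle between nucleus and cytoplasm and bind MEF2 factors. HDAC6 and HDAC10 form class IIb, and HDAC11 is the lone class IV enzyme. HDAC6 is mainly cytoplasmic and deacetylates alpha-tubulin, cortactin and HSP90. In ovarian clear cell carcinoma, ARID1A, the DNA-binding subunit of a SWI/SNF chromatin remodelling complex, has been described as a repressor of HDAC6 transcription.

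The arrays had 21317 to 22517 probes detected each, with median raw intensities of 316.645 to 348.539. Epithelial EPCAM, CDH1, KRT7, KRT8 and KRT19 and the clear cell carcinoma markers PAX8, NAPSA and ANXA4 were detected on all 9 arrays, whereas KRT18 was detected on none. Of 4 leukocyte markers, PTPRC and CD3E were not detected on any array, CD14 was on 8 and CD68 on 9. Fibroblast COL1A2, COL3A1 and LUM, endothelial PECAM1, CDH5 and KDR, and 4 nerve and muscle genes were not detected, whereas fibroblast COL1A1 was detected on 1 array and DCN on 2. The endothelial gene VWF was detected on all 3 induced-ARID1A arrays and on no other. The summed raw intensity of the 4 endothelial markers was 999.155 to 1169.2 with DMSO, 1152.79 to 1238.83 with ARID1A and 984.74 to 1105.14 with GSK126. That of the 6 epithelial markers was 207196 to 207684, 237275 to 247823 and 207461 to 219921 in the same order. For the 3 clear cell carcinoma markers it was 25649.8 to 28407.5, 23253.1 to 33330.5 and 29386.2 to 38763.9. For the 4 nerve and muscle genes it was 961.459 to 1061.6, 917.596 to 1014.82 and 1062.3 to 1081.71. The leukocyte and fibroblast sums overlapped between all groups. Raw sums include background, also from genes that were not detected. The part of any list in the HDAC results was not tested.

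The probe for the induced gene separated the groups. ARID1A probe ILMN_1734496 was not well above background with DMSO or with GSK126 on any array, and was detected on all 3 induced arrays, at a normalised log2 intensity of 8.67 ± 0.38 (SD, n = 3) against 5.69 ± 0.21 with DMSO. This is at least 3.74-fold higher, taking the detection limit of each DMSO array as its level (limma adjusted p = 0.000319 for the fitted difference). The probe passed the detection filter only through the 3 induced arrays, where it is high, so this adjusted p is no independent support. A second ARID1A probe, ILMN_1797341, read 11.07 with DMSO, 10.94 with induction and 10.86 with GSK126 and did not pass. The 3 probes of EZH2, the target of GSK126, were lower than DMSO by −0.17 to −0.49 (log2) with ARID1A and by −0.26 to −0.30 with GSK126, and none passed.

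The promoters of HDAC7 and HDAC11, the members called below, and of HDAC6 are shown so that the 3 sequences can be compared. Each is the RefSeq window from 250 bases before to 50 after a transcription start in assembly GRCh38.p14, read 5′ to 3′ on the gene's strand, with the GC box GGGCGG, searched on both strands, in capitals.
HDAC6 (chrX:48801817-48802116, plus strand): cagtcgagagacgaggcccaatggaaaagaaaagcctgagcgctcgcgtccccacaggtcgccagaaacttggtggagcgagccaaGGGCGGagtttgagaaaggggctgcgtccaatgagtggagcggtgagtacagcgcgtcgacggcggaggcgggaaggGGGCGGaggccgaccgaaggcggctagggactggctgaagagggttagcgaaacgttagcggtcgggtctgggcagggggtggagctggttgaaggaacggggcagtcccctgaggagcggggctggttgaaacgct
HDAC7 (chr12:47819854-47820153, minus strand): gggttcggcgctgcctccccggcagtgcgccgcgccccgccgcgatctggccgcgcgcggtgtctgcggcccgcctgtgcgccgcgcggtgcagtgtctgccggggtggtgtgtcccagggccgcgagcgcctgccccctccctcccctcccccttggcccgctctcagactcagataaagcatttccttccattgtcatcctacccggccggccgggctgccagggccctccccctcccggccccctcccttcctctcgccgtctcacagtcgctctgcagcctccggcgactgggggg
HDAC11 (chr3:13480056-13480355, plus strand): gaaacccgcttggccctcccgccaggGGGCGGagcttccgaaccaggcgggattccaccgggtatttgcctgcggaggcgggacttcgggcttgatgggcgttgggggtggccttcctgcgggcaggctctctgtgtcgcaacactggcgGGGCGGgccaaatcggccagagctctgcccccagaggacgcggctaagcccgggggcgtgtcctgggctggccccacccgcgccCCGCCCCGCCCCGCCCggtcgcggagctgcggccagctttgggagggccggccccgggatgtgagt
The HDAC11 window holds 5 GC boxes, some overlapping or adjoining, the HDAC6 window 2 and the HDAC7 window 0, where 45% of 35116 windows of the same length hold at least 1. The number of boxes does not mark the called members: the windows of HDAC1 and HDAC3, which were not called, hold 6 and 3. Those of HDAC2 and HDAC8, also not called, hold 0. HDAC6 has 3 annotated windows, of which the first in the table is printed, and the others hold 1 and 4. The CG dinucleotide occurred 30, 27 and 33 times in the printed windows of HDAC11, HDAC6 and HDAC7, against a median of 14 over all windows. In the other HDAC6 windows it occurred 21 and 36 times. CCAAT, also searched on both strands, was found 2 times in the printed HDAC6 window and not in the other pair (34.6% of all windows hold it). The other HDAC6 windows hold it 0 and 2 times. The AP-1 motif TGANTCA, the E-box CACGTG and TATAAA were in none of the 3 printed windows, and in 7.71%, 7.26% and 11.5% of all. A match is only a run of letters and shows no binding.

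Detection differed between members. On all 9 arrays, HDAC1, HDAC3, HDAC8, HDAC4, HDAC6 and HDAC11, each with 1 probe, were detected, as were both probes of HDAC2, 3 of the 4 of HDAC9 and 1 of the 3 of HDAC7. The 2 HDAC5 probes were each detected on 4 arrays, and HDAC7 probe ILMN_3189715 on 6. Not tested were HDAC7 probe ILMN_1794485, detected on 1 array, a DMSO array, and HDAC9 probe ILMN_1673708, detected on 0. The only probe of HDAC10, the other class IIb enzyme and not a member here, was detected on 0 arrays, with detection p-values of 0.538 to 0.897.

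**Figure D1:**
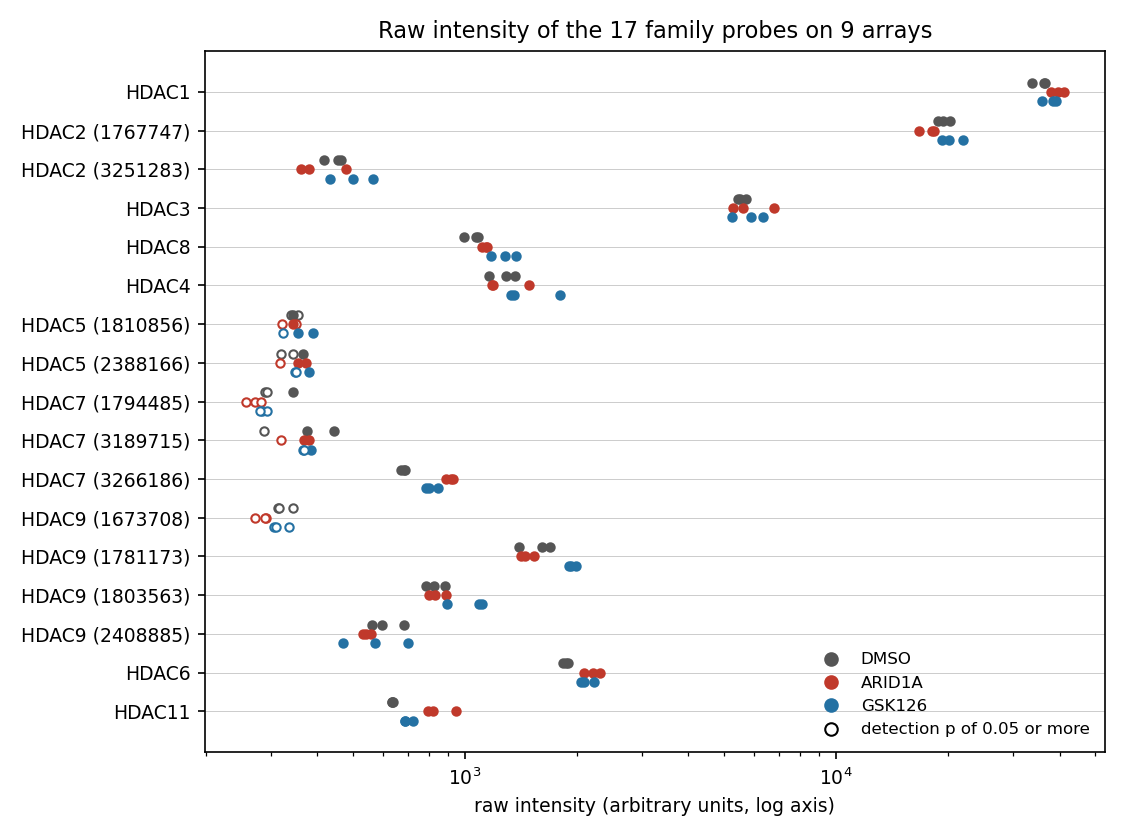
Raw intensity (arbitrary units, log axis) of the 17 family probes on the 9 arrays, before normalisation, with colours for the groups and open circles where the detection p was 0.05 or more. HDAC1 is brightest at 33677.5 to 41085.8; the HDAC5 probes, 2 of the HDAC7 probes and 1 HDAC9 probe hold open circles. Intensities of different probes are not comparable as RNA levels.

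Induced ARID1A was compared with DMSO to ask which deacetylase genes differ when ARID1A is expressed. HDAC7, on probe ILMN_3266186, and HDAC11 rose, to 1.53-fold and 1.56-fold of the DMSO level, and no family probe was called lower. The other tested HDAC7 probe, ILMN_3189715, differed by 0.0038 (log2). The 2 calls depended on the processing and passed in 12 and 11 of 25 alternatives. HDAC6 was higher on every induced array than on any DMSO array, at 1.20-fold, but did not pass the test. Thus 2 of 15 family probes were called (13.3%), both higher, where 1.44% of all 23014 probes were called at a limma adjusted p below 0.05, 1.09% higher and 0.352% lower. Both also passed with batch as a block, where 2.72% of all probes did. An unadjusted p below 0.05 was found for 3 of 15, or 20%, against 16.5% of all probes. The groups did not overlap for 5 family probes, which is 33.3% against 22.6% of all probes. Of these, 4 were higher and 1 lower, against 11.5% and 11.1% of all probes. The median difference was 0.03 over the 15 probes and −0.011 over all probes (log2), and 11 of the 15 were above 0, against 47.7% of all probes. The members were chosen with earlier results of these data known, so these shares are a description.

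HDAC7, a class IIa enzyme best known from endothelial cells and thymocytes, read normalised log2 intensities of 8.80, 8.75 and 8.84 in DMSO batches 1 to 3 on probe ILMN_3266186. With induced ARID1A it read 9.43, 9.27 and 9.53, and with GSK126 9.09, 9.12 and 8.88. All 3 induced arrays lie above all DMSO and GSK126 arrays. The rise over DMSO was 0.61 (SE 0.10, 95% confidence interval 0.38 to 0.85, limma adjusted p = 0.0310), and the differences within batches 1, 2 and 3 were 0.63, 0.52 and 0.69. Probe ILMN_3189715, annotated to the same RefSeq transcript, showed no such rise: its difference was 0.0038 (SE 0.33, interval −0.75 to 0.75), and within batches 0.19, −1.16 and 0.98. That probe was detected on 2 arrays of each group, and its interval includes the value of the brighter one. The call of ILMN_3266186 was lost without any 1 of the 3 DMSO arrays or without induced array 1 or 3 (adjusted p 0.0816 to 0.117), with a difference there of 0.56 to 0.63.

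HDAC11, a deacetylase and fatty-acyl hydrolase, read 8.63, 8.61 and 8.65 with DMSO, 9.12, 9.40 and 9.30 with induced ARID1A and 8.88, 8.68 and 8.58 with GSK126. The induced arrays again lie above the other 6, while the GSK126 and DMSO arrays overlap. Its rise was 0.64 (SE 0.11, interval 0.39 to 0.89, limma adjusted p = 0.0318), with 0.49, 0.78 and 0.65 in batches 1 to 3. Without any 1 of the 3 DMSO arrays, induced array 2 or 3, or GSK126 array 2, the call was lost (adjusted p 0.0544 to 0.122), with a difference there of 0.58 to 0.65. On the authors' deposited value table, which is quantile normalised, the difference was smaller, 0.43 (limma adjusted p = 0.0127), and that of HDAC7 was 0.42. Raw intensities quantile normalised here without background subtraction also gave 0.43 for HDAC11 and 0.42 for HDAC7.

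**Figure D2:**
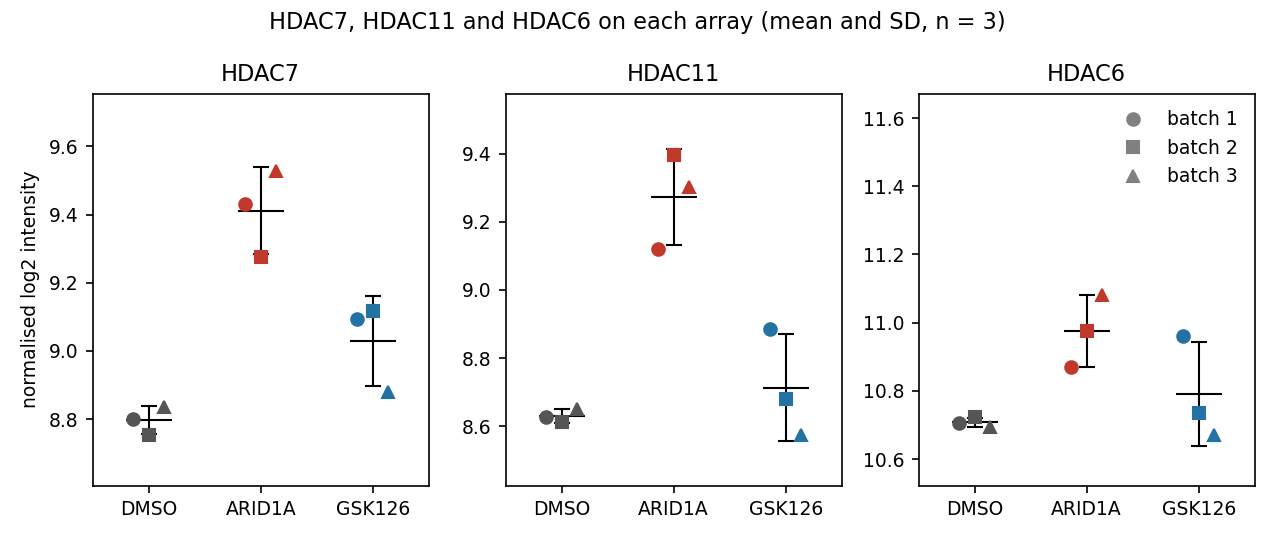
Normalised log2 intensity of HDAC7 (ILMN_3266186), HDAC11 and HDAC6 on each array by group; symbols mark the batch, the dash and bar the mean and SD of 3 arrays, and the 3 vertical axes span equal ranges. The 3 induced-ARID1A arrays lie above the 3 DMSO arrays in every panel, with means of 9.41 against 8.80, 9.27 against 8.63 and 10.98 against 10.71.

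HDAC6 read 10.71, 10.72 and 10.69 with DMSO, 10.87, 10.98 and 11.08 with induced ARID1A, and 10.96, 10.73 and 10.67 with GSK126. The DMSO arrays are the tightest group, with an SD of 0.01 against 0.11 and 0.15. Relative to DMSO, induced ARID1A gave a difference of 0.27 (SE 0.10, interval 0.04 to 0.50), 1.20-fold with bounds of 1.03 and 1.41. It had an unadjusted p of 0.0274 and a limma adjusted p of 0.240 and so did not pass. Within batches 1 to 3 the difference was 0.16, 0.25 and 0.39, higher in 3 of 3. The 95% interval, which is not adjusted for the number of probes, lies above 0 on this probe. Whether ARID1A acts on HDAC6 transcription was not tested.

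Among class I enzymes none passed in this comparison. HDAC1, a catalytic subunit of the SIN3, NuRD and CoREST complexes, read 15.16, 15.21 and 15.09 with DMSO, 15.34, 15.26 and 15.38 with induced ARID1A and 15.08, 15.13 and 15.10 with GSK126. Its induced arrays were above the others, but the difference from DMSO was 0.18 (interval −0.0064 to 0.36, limma adjusted p = 0.322). HDAC2, its close paralogue in the same complexes, read 14.31, 14.23 and 14.29 on probe ILMN_1767747 with DMSO, 14.12, 14.14 and 14.15 with ARID1A, and 14.20, 14.20 and 14.24 with GSK126. The induced arrays were the lowest, by −0.14 from DMSO (limma adjusted p = 0.395), so the paralogues lay on opposite sides of DMSO without either passing. The other HDAC2 probe, ILMN_3251283, spread widely, from 7.45 to 7.72 with DMSO, 7.04 to 7.80 with ARID1A and 7.48 to 8.19 with GSK126. Its difference was −0.28 (limma adjusted p = 0.581). HDAC3, the catalytic subunit of the NCoR and SMRT complexes, differed by 0.08 and HDAC8, a class I enzyme that deacetylates the cohesin subunit SMC3, by 0.14, with overlapping groups.

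The remaining class IIa probes also stayed short of the threshold. HDAC4, which represses MEF2 targets in muscle and bone, ranged from 9.89 to 10.43 over the 9 arrays and differed by 0.01. The 2 HDAC5 probes ranged from 6.33 to 7.02 and from 6.41 to 7.18, and differed by 0.02 and 0.17. HDAC9, also a MEF2 repressor, differed by −0.11, 0.03 and −0.28 on probes ILMN_1781173, ILMN_1803563 and ILMN_2408885, which the annotation assigns to 3 different RefSeq transcripts.

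**Figure D3:**
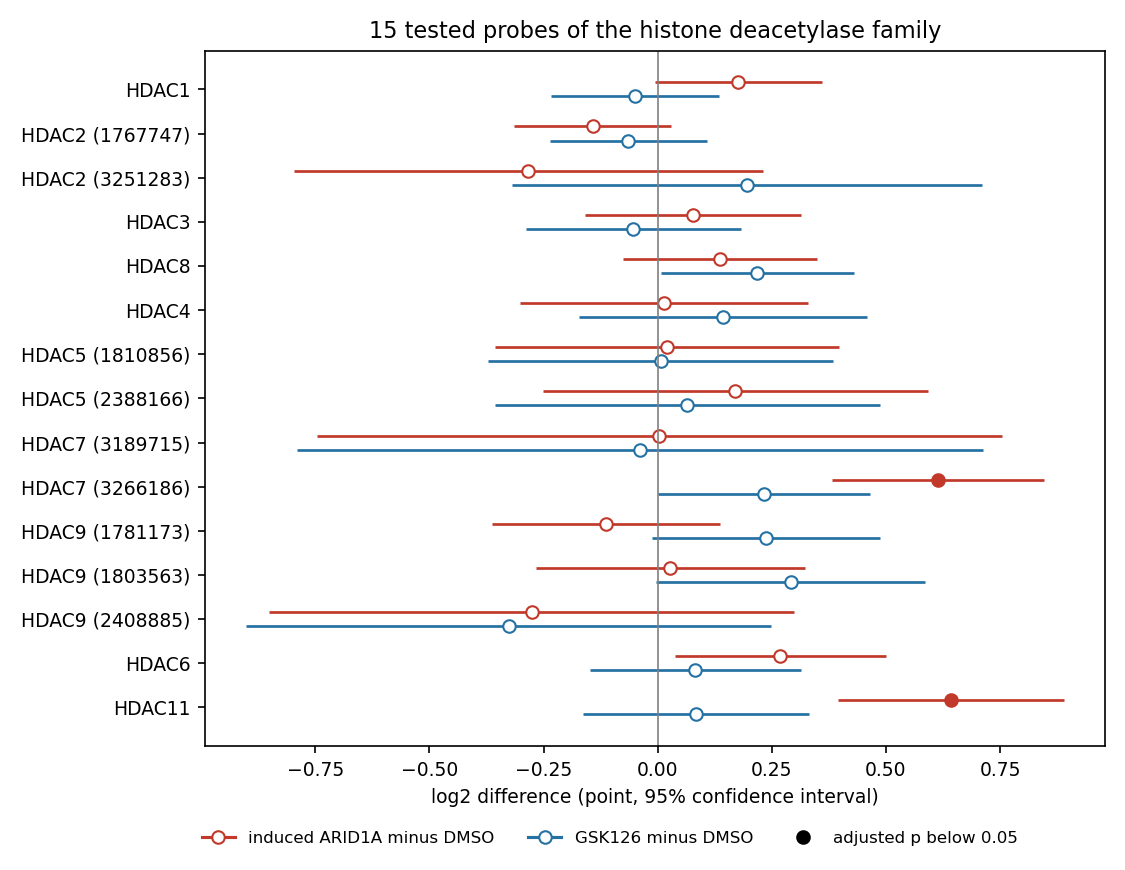
Log2 difference from DMSO of each of the 15 tested probes (point) with its 95% confidence interval (line), for induced ARID1A and for GSK126; filled points passed an adjusted p below 0.05. Filled are only HDAC7 (ILMN_3266186) at 0.61 and HDAC11 at 0.64 with induced ARID1A, and the widest interval is that of HDAC7 probe ILMN_3189715.

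GSK126 was compared with DMSO to ask which of the genes differ under EZH2 inhibition. No family probe was called, and neither was any of the 23014 probes (0% called by limma; 2149 had an unadjusted p below 0.05 and the smallest adjusted p was 0.156). In the family 2 of 15 probes had an unadjusted p below 0.05, 13.3% against 9.34% of all probes. The groups did not overlap for 3 of 15, or 20%, against 15.2% of all; all 3 were higher, where 7.89% of all probes were higher and 7.33% lower. The median difference was 0.08 in the family and −0.0010 over all probes, and 10 of 15 were above 0, against 49.8% of all. The comparison shares its DMSO arrays with the one above.

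Those 3 probes belong to HDAC8, HDAC7 and HDAC9. HDAC8 read 9.71, 9.75 and 9.60 with DMSO, 9.82, 9.71 and 9.95 with ARID1A and 9.85, 9.92 and 9.95 with GSK126. The GSK126 arrays all lay above the DMSO arrays, by 0.22 (interval 0.0063 to 0.43, limma adjusted p = 0.523). HDAC7, with the array values given above, differed by 0.23 (limma adjusted p = 0.534), and by 0.29, 0.36 and 0.04 within the batches. HDAC9 probe ILMN_1781173 read 10.53, 10.45 and 10.22 with DMSO, 10.36, 10.13 and 10.38 with ARID1A, and 10.69, 10.63 and 10.60 with GSK126. The difference was 0.24 (limma adjusted p = 0.557), higher in 3 of 3 batches.

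The other HDAC9 probes did not share one direction. ILMN_1803563 read 9.09, 9.34 and 9.23 with DMSO, 9.13, 9.14 and 9.47 with ARID1A and 9.34, 9.66 and 9.54 with GSK126, a difference of 0.29 from DMSO (limma adjusted p = 0.541). It was higher in each batch, by 0.25, 0.32 and 0.31. ILMN_2408885 read 8.32, 8.72 and 7.58 with GSK126 against 8.36 to 8.78 with DMSO, a difference of −0.33 (limma adjusted p = 0.732) with 1 low GSK126 array.

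HDAC6 differed from DMSO by 0.08 with GSK126 (interval −0.15 to 0.31, limma adjusted p = 0.847). Its batches gave 0.26, 0.01 and −0.02, so the value rests on GSK126 array 1, without which it was −0.0038. HDAC11 differed by 0.08 (limma adjusted p = 0.856), and by −0.0017 without the same array.

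**Figure D4:**
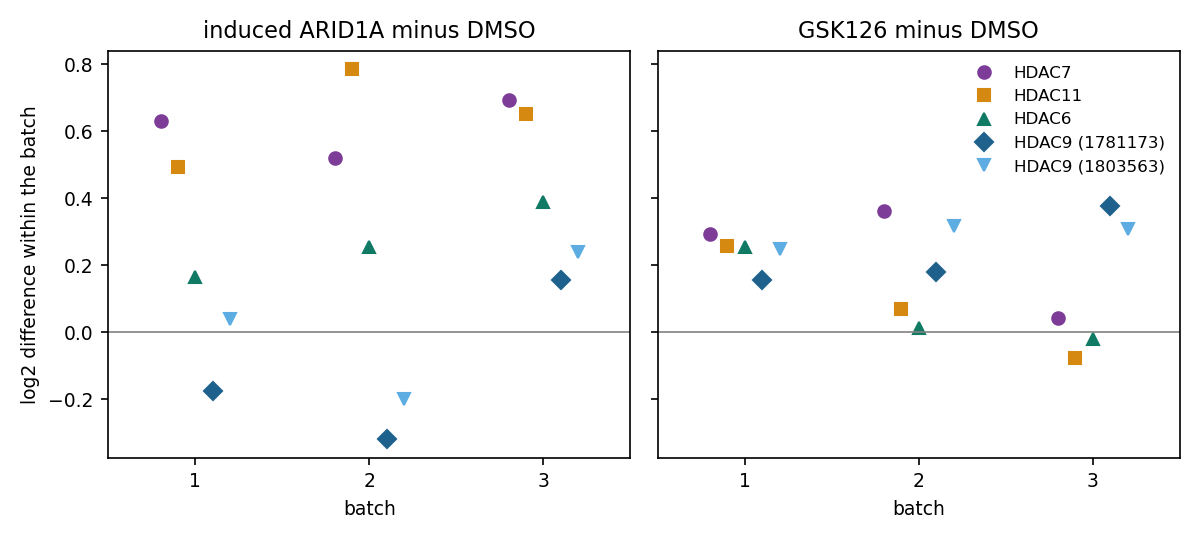
Log2 difference from the DMSO array of the same batch for HDAC7 (ILMN_3266186), HDAC11, HDAC6 and 2 HDAC9 probes, with induced ARID1A (left) and GSK126 (right); each point is 1 array minus 1 array. With ARID1A, HDAC7, HDAC11 and HDAC6 lie above 0 in all 3 batches; with GSK126, HDAC6 is at 0.26 in batch 1 and −0.02 in batch 3, and both HDAC9 probes lie above 0 throughout.

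GSK126 was also set directly against induced ARID1A, which tests whether the responses differ. HDAC11 was lower with GSK126 by −0.56 (SE 0.11, interval −0.81 to −0.31, limma adjusted p = 0.0497), and 1 of 15 family probes was called (6.67%) where 1.28% of all probes were and 0.808% were called lower. With batch as a block, where 2.27% of all probes passed, the adjusted p was 0.0626, so the call was lost, as it was without any 1 of the 9 arrays (0.0690 to 0.153), with the difference between −0.64 and −0.49. HDAC7 differed by −0.38 (limma adjusted p = 0.118), HDAC1 by −0.23 (0.223) and HDAC6 by −0.19 (interval −0.42 to 0.04, 0.442). HDAC9 probe ILMN_1781173 read higher on every GSK126 array than on any induced array, by 0.35 (limma adjusted p = 0.171). The largest positive difference in the family was that of HDAC2 probe ILMN_3251283, 0.48 (interval −0.036 to 0.99, limma adjusted p = 0.365), with overlapping groups and higher values in 3 of 3 batches. An unadjusted p below 0.05 was found for 4 of 15, or 26.7%, against 15.2% of all probes, and 6 of 15 were above 0, against 50.5%. The groups did not overlap for 5 of 15 probes, 33.3% against 20.2% of all. Of these, 2 were higher and 3 lower, against 10.2% and 9.97% of all. A difference between the treatments was therefore called by the test for HDAC11 and for no other family probe.

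Genes that act with the HDACs were summarised by lists, each gene by its brightest tested probe. In the SIN3, NuRD and CoREST complexes of HDAC1 and HDAC2, 26 of 29 listed genes were tested, and with induced ARID1A 0 rose and 1 fell (median difference 0.07). The gene that fell, RCOR2, a CoREST scaffold, read 11.20 ± 0.09 with DMSO and 10.31 ± 0.34 with ARID1A (SD, n = 3), lower by −0.88 (SE 0.18, limma adjusted p = 0.0496). Its call was lost without any 1 of the 9 arrays (0.0524 to 0.168) and held with batch as a block (0.0272). The call covers 1 of 26 genes, where 1.75% of 12698 genes were called in either direction. SAP30, a SIN3 complex subunit, was 0.61 above DMSO (SE 0.14) without passing (limma adjusted p = 0.0838). It passed once batch was a block (0.0454), where 3.32% of genes did.

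In the other lists no gene passed with induced ARID1A. For the HDAC3 complex, 3 of 5 genes were tested, all above 0, led by TBL1XR1 at 0.40 (limma adjusted p = 0.111) and TBL1X at 0.16 (0.417), both exchange factors of the NCoR complex. Of the class IIa partners, MEF2 factors, 14-3-3 proteins and the kinases that send class IIa enzymes to the cytoplasm, 15 of 18 were tested (median −0.05). The smallest p-values were those of YWHAQ, 0.23 (adjusted p = 0.338), and PRKD3, −0.18 (0.480). Of HDAC6 substrates and partners, 12 of 16 were tested (median 0.0070); SIRT2, the other tubulin deacetylase, differed by 0.24 (0.389) and TUBA4A, an alpha-tubulin, by −0.32 (0.500). The sirtuins, NAD-dependent deacetylases, had 5 of 7 tested (median 0.24) with SIRT7 at 0.41 (0.142), and SIRT2 stands in both lists. The acetyltransferases had 11 of 12 tested (median 0.07), with NCOA1 at 0.20 (0.466) and EP300 at −0.14 (0.443). The bromodomain readers of acetyl-lysine had 4 of 7 tested (median −0.09), with BRD9 at −0.20 (0.601) and BRD7 at −0.09 (0.638).

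With GSK126 against DMSO, 0 genes of these lists were called, with medians from −0.07 for bromodomain readers to 0.17 for sirtuins. The smallest adjusted p-values among class IIa partners were those of MEF2A, −0.50 (SE 0.13, limma adjusted p = 0.352), and MEF2D, −0.30 (0.468). These transcription factors recruit class IIa enzymes and are named here after their values were seen. For GSK126 against induced ARID1A no listed gene passed. RCOR2 was 0.73 higher with GSK126 there (limma adjusted p = 0.0866) and passed with batch as a block (0.0447).

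The genes whose 9 values were most like those of HDAC6 were ranked by the root-mean-square difference of log2 values centred on each gene's mean, among 8760 genes whose range over the arrays was at least that of HDAC6 (0.41). ACSF2 was closest at 0.0555, followed by PRAF2 at 0.0567, DOLK at 0.0588, CYB561D1 at 0.0609 and HID1 at 0.0615. Within the family HDAC1 was the closest, at 0.110; HDAC1 itself need not meet the range limit, and 3.26% of the other genes tested, whatever their range, were closer. HDAC3 followed at 0.129, HDAC8 at 0.158, HDAC7 at 0.168 and HDAC11 at 0.184. The measure is a description over 9 arrays that share batches and normalisation. It depends on the size of a change as well as its direction. Members that rose more than HDAC6 with induced ARID1A, such as HDAC7 and HDAC11, can therefore score as less alike.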

How the data were processed

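RNA of 9 OVISE samples was hybridised to an Illumina expression array. For each array the deposited raw table gives every probe a linear intensity beside its detection p-value. The authors exported these from GenomeStudio, per the submitters' processing notes, in a version that the sources used here do not give. The authors' deposited value table holds intensity values that are already quantile normalised, and served as an alternative. Raw intensities were processed here with limma 3.58.1 in R 4.3.3: neqc (normexp background, negative controls taken from detection p-values, offset 16, quantile normalisation, log2). Testing was limited to the 23014 probes (48.6%) whose detection p was below 0.05 on 3 or more of the 9 arrays. One linear model with 3 group means (lmFit, eBayes, 6 residual degrees of freedom) gave two-sided tests, adjusted by Benjamini-Hochberg over all kept probes at 0.05. Every adjusted p comes from this limma model, or from its variant where the block or another alternative is named. Precision is limited by how few arrays there are.

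The platform annotation gives 30113 probes 1 symbol and 8 several. For 30074 probes the Entrez identifier was found in RefSeq of GRCh38.p14 and the symbol was taken from there, whether or not it differed. The labels give every group batches 1 to 3, so replicate numbers pair the samples. The correlation of deviations from group means was 0.0722 to 0.247 for 9 pairs of arrays from 1 batch and −0.168 to 0.0273 for 18 pairs from different batches. A model with batch as a block has 4 residual degrees of freedom.

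Values on all arrays are given for HDAC6 and for members called, called with the block or with an unadjusted p below 0.05, and also for probes singled out after their values were seen. Lists name up to 4 called genes, or the 2 with the smallest p. The members and lists were chosen with earlier results of these data known. Alternatives varied normalisation, offset, filter, block, variance moderation, features adjusted over and arrays left out. The model code was run on simulated data with independent noise and planted changes larger than those of the family. That run does not bear on the family calls.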

Additional observations from a re-analysis of the deposited data

How the results depend on the processing

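Results were recomputed under up to 25 alternatives. Probes not detected on all 9 arrays have no value under that filter, and probes that do not represent their gene none with 1 probe per gene, which left 23 or 24. With 3 arrays per group, and 2 when a batch is left out, few arrays stand behind each call. The rise with induced ARID1A kept its direction in all 25 for HDAC7 (ILMN_3266186; 0.42 to 0.68) and HDAC11 but passed in 12 and 11. HDAC6 with induced ARID1A stayed between 0.21 and 0.32 and passed in none (adjusted p 0.166 to 0.614). HDAC11 for GSK126 against ARID1A passed in 7. Beyond the settings that leave out samples and the construction of the filter, the cause of these changes was not tested.

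With no filter the adjusted p was 0.0522 for HDAC7 (0.61), 0.0527 for HDAC11 (0.64) and 0.0861 for HDAC11 in GSK126 against ARID1A (−0.56); the family counts became 0 and 0, and the counts over all probes 178 and 144, against 332 and 295. With only the 6 arrays compared, the same differences had 0.0588, 0.0575 and 0.125, and the counts were 0, 0, 129 and 107. With batch as a replicate block HDAC11 in GSK126 against ARID1A (−0.56) had 0.0626, the family count there was 0, and 627 and 523 probes were called; no other member call changed. Counts over all probes for ARID1A, GSK126 and GSK126 against ARID1A were 737, 1 and 731 on the authors' value table, 722, 1 and 712 without background subtraction, and 914, 1 and 846 with trend and robust moderation.

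Leaving out 1 array gave 0.56 to 0.68 for HDAC7, 0.58 to 0.72 for HDAC11 and −0.64 to −0.49 for HDAC11 in GSK126 against ARID1A; family counts of 0 to 2 and of 0; and 86 to 270 and 91 to 174 probes. For GSK126 against DMSO it gave −0.0038 to 0.14 for HDAC6 and −0.0017 to 0.15 for HDAC11. Without batch 1, 2 or 3, with or without the block, family counts were 0. HDAC7 gave 0.61, 0.66 and 0.57 (adjusted p 0.262, 0.193 and 0.220), HDAC11 0.72, 0.57 and 0.64 (0.147, 0.256 and 0.251), and HDAC11 in GSK126 against ARID1A −0.72, −0.48 and −0.48 (0.158, 0.304 and 0.365). Probes called for ARID1A were 19, 21 and 17 (0, 1 and 4 with the block) and for GSK126 against ARID1A 8, 20 and 22 (0, 1 and 4). HDAC6 and HDAC11 with GSK126 reversed without batch 1, to −0.0042 and −0.0038.

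The other reversals are of probes called in no comparison. With induced ARID1A they were HDAC7 ILMN_3189715 (−0.027 with median scaling, −0.012 with offset 50, −0.092 without batch 1, −0.48 without batch 3), HDAC3 (−0.0021 without batch 2), HDAC4 (−0.059 and −0.045 without batches 2 and 3), HDAC5 ILMN_1810856 (−0.034 and −0.044 likewise) and HDAC9 ILMN_1803563 (−0.079 without batch 3). With GSK126 they were HDAC5 ILMN_1810856 (−0.00039 on the authors' table, −0.0013 without background subtraction, −0.056 with median scaling, −0.19 without batch 2), HDAC5 ILMN_2388166 (−0.022), HDAC3 (0.020) and HDAC7 ILMN_3189715 (0.25), each without batch 2, and HDAC4 (−0.058 without batch 3). For GSK126 against ARID1A they were HDAC7 ILMN_3189715 (0.076 and 0.13 without batches 1 and 3), HDAC3 (0.022 without batch 2) and, without batch 3, HDAC4 (−0.013), HDAC5 ILMN_1810856 (0.25), HDAC5 ILMN_2388166 (0.011) and HDAC9 ILMN_2408885 (0.35). The block gave the same differences. Leaving out 1 array gave, with induced ARID1A, −0.074 to 0.087 for HDAC4, −0.053 to 0.11 and −0.0033 to 0.33 for the HDAC5 probes, −0.38 to 0.36 for HDAC7 ILMN_3189715 and −0.084 to 0.087 for HDAC9 ILMN_1803563. With GSK126 it gave −0.11 to 0.024 for HDAC3, −0.15 to 0.20 and −0.063 to 0.21 for HDAC5, and −0.42 to 0.31 for HDAC7 ILMN_3189715. For GSK126 against ARID1A it gave −0.17 to 0.17 and −0.27 to 0.068 for HDAC5, −0.27 to 0.083 for HDAC7 ILMN_3189715 and −0.31 to 0.26 for HDAC9 ILMN_2408885.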
